A study of Drosophila melanogaster with 12 samples.

Results

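The carcasses of nub1 females were compared with those of wild-type (wt) females on Affymetrix Drosophila Genome 2.0 arrays, 3 arrays against 3, for metabolic, hormonal, muscle, ovary and fat body genes. The carcass was the fly without head and gut, and each array held RNA from 1 pool of 20 untreated flies, aged 7 to 12 days and kept in vials that also held males. The mutant strain was nub1 b1 pr1, so the mutant alleles of black (b) and purple (pr) came with nub1 in every mutant pool. For the wt pools the sample labels name OregonR and w1118 together and the design text names OregonR alone. Effects of nub1, of the linked alleles and of strain background cannot be told apart in these 6 arrays of the 12 in the series. The nub1 allele is a retrotransposon insertion that lowers one of the nub transcripts, nub-RD, and with it the Nub-PD protein. A gene was compared if 1 of the genotypes had a signal of 10 or more on each of its 3 arrays, which held for 7356 of the 11981 genes named on the array, each represented by 1 probe set. The question was which transcripts outside the antimicrobial peptides differed in uninfected nub1 carcasses.

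The nub gene encodes Nubbin (Pdm1), a POU-domain transcription factor. The adult carcass holds the abdominal fat body, which stores triglyceride and glycogen, makes the blood sugar trehalose and secretes haemolymph proteins. It also holds muscle, cuticle, the oenocytes that make cuticular hydrocarbons and, in females, the ovaries. Adipokinetic hormone (AKH) calls on the fat body stores through its receptor, and insulin-like peptides act in the opposite sense.

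The 6 carcass arrays resembled each other closely, with correlations of log2 signals of 0.976 to 0.983 between the genotypes and 0.991 to 0.994 within them. Median signals lay between 7.81 and 11.1. The carcass held ovary RNA, with 13 ovary markers all above a signal of 10 (mean log2 signal 10.96 to 11.19 in wt and 10.96 to 11.09 in nub1). Of 8 eye and head markers 7 or 8 were under 10 on each carcass array. Fat body markers were at 8.95 to 9.34 in wt and 9.30 to 9.42 in nub1, and their summed signals were 20679.1 to 22765.8 in wt and 23404.9 to 25607.9 in nub1, without overlap. Gut markers (36 genes) lay at 5.71 to 5.80 on the wt arrays and at 6.77, 6.04 and 6.46 on nub1 replicates 1 to 3, without overlap. Their summed signals overlapped (9255.6 to 12847.6 in wt and 7596.8 to 12770.0 in nub1), and 18 of the 36 were under 10 in wt and 9 to 11 in nub1. Of the 23 gut markers that could be tested 11 were higher and 1 lower in nub1. A marker under 10 on a wt array was tested only if all 3 nub1 arrays reached 10, which favours higher calls. Muscle markers (8 genes) were at 8.03 to 8.26 in wt and 8.29, 8.69 and 8.62 in nub1 (summed signal 2324.2 to 2795.4 and 2950.5 to 3985.0). Oenocyte markers (8 genes) were at 9.26 to 9.42 in wt and 8.94 to 9.03 in nub1 (summed signal 11288.2 to 12728.5 and 9173.1 to 9475.2). No muscle or oenocyte marker was under 10 on any array. Summed signals of 4 ejaculatory duct markers were also higher in nub1 (1804.4 to 1920.4, against 1065.8 to 1460.4 in wt), and the 1 tested was higher. Their mean log2 signals overlapped (5.31 to 6.05 in nub1 and 5.22 to 5.60 in wt). On each carcass array 2 or 3 of these 4 markers were under 10, so the sum rests on the few others. Of 13 male accessory gland markers 11 or 12 were under 10 on each carcass array, and of 17 testis markers 15 to 17. Summed signals of 9 Malpighian tubule markers were lower in nub1 (416.0 to 470.3, against 609.2 to 661.8). The mean log2 signals of these 9 overlapped (5.35 to 5.44 in nub1 and 5.30 to 5.57 in wt). ZnT35C is among them, with a mean signal of 205.2 in wt and 41.0 in nub1. The part of these shifts in the results was not tested, and in whole carcasses fewer cells of a type and less RNA per cell cannot be told apart.

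**Figure D1:**
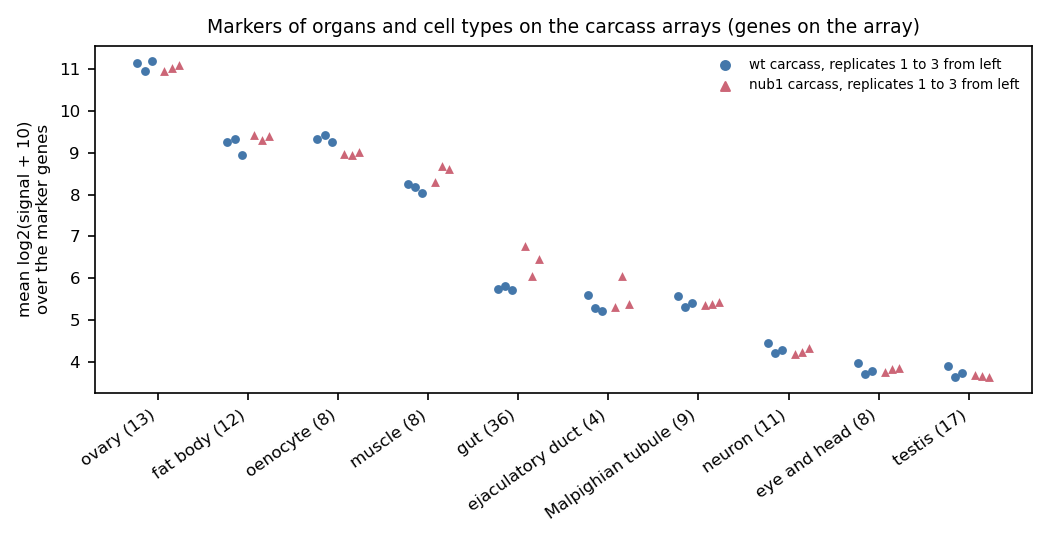
Mean log2(signal + 10) over the marker genes of 10 organs and cell types (y axis) on each carcass array, with the number of genes on the array in brackets. Circles are the 3 wt and triangles the 3 nub1 arrays, each in the order of replicates 1 to 3, and the gut, muscle and oenocyte markers are the ones in which these means do not overlap between the genotypes.

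A gene passed the test at a Benjamini-Hochberg adjusted p under 0.05 from limma, and was called changed when its fitted fold was also at least 2. Of the 7356 genes 574 were higher (7.8%) and 583 lower (7.93%) in nub1 carcasses. Of these, 185 (2.51%) were higher and 145 (1.97%) lower by at least 2-fold. Counts of list members below are to be read beside these shares. Over all 8855 probe sets the test passed 15.6%, and 4.71% were changed (2.77% higher and 1.94% lower). The fold reached 4 for 37 genes that were higher and 17 that were lower, and the median log2 fold change of all genes was -0.02. All 417 changed probe sets had arrays that did not overlap between the genotypes, as did 45% of all probe sets and 45.7% of all genes tested. Fold changes are on the log2(signal + 10) scale, which understates those of dim genes. A gene under 10 on an array of 1 genotype was tested only through the other, which favours calls in that direction. Of the 417 changed probe sets 49 were under 10 on all wt arrays and 36 on all nub1 arrays. Signals compare arrays for 1 probe set and not the levels of different genes.

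**Figure D2:**
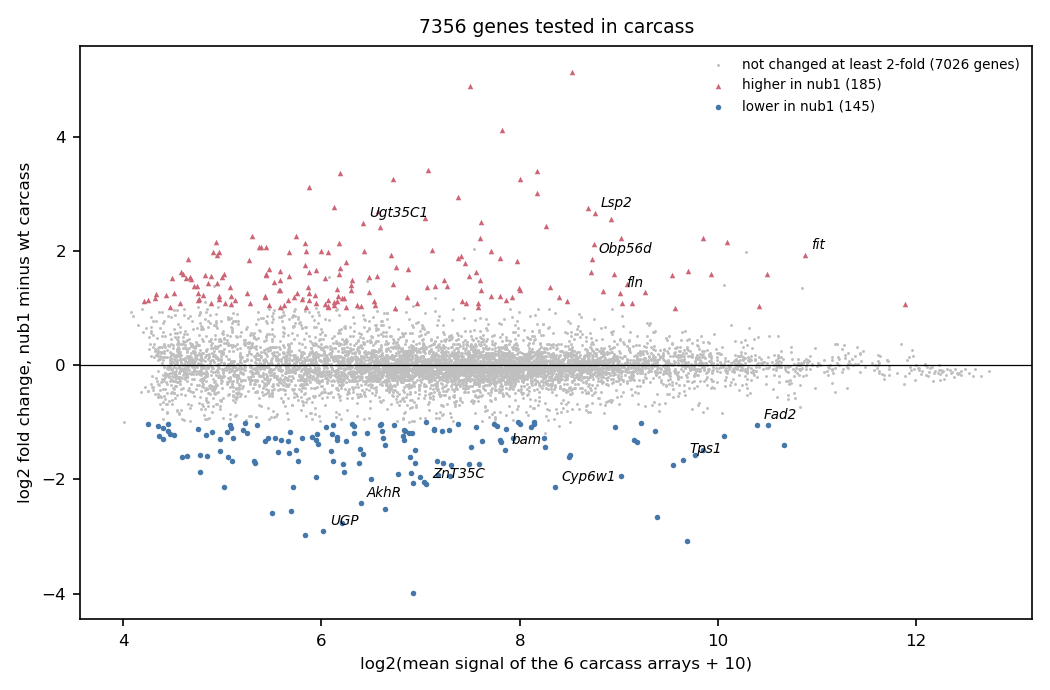
Log2 fold change, nub1 minus wt carcass (y axis), against log2 of the mean carcass signal plus 10 (x axis) for the 7356 genes tested. The 185 triangles are genes called higher and the 145 dark circles genes called lower by at least 2-fold, and they are found from dim genes to bright ones.

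Of 10 trehalose and glycogen genes tested 5 were lower in nub1, 1 was higher and 4 did not pass, and UGP and Tps1 had the largest falls. UGP encodes the UDP-glucose pyrophosphorylase that makes the sugar donor for both products. Its signal was 108.0, 129.0 and 77.3 on the wt arrays and 3.59, 4.77 and 6.7 on the nub1 arrays, all under 10, at least 10.5-fold lower (adjusted p = 1.12e-06 from limma). Tps1, the trehalose-6-phosphate synthase gene, was at 1249.1, 1329.2 and 1046.6 in wt and 387.3, 443.3 and 313.3 in nub1. The lowest wt pool was thus more than 2-fold above the highest nub1 pool for both genes. Tps1 fell by 1.65 on the log2 scale (SE 0.15, adjusted p = 1.35e-05) and the phosphoglucomutase gene Pgm1 by 0.66 (SE 0.10, adjusted p = 0.000845). The list had a median log2 fold change of -0.30, and among all genes 7.93% were lower and 7.8% higher. The higher member was Gal, a beta-galactosidase gene, at 6.21 to 8.94 in wt and 15.6 to 21.5 in nub1 (0.72, SE 0.20, adjusted p = 0.026). Gal entered the test only through nub1, where it was high, which favours a higher call. The genes for glycogen synthase (Glys, -0.27), glycogen phosphorylase (Glyp, -0.23) and trehalase (Treh, 0.04) did not pass (adjusted p = 0.121, 0.113 and 0.918). In a fit of the 6 carcass arrays alone, Glys and Glyp also passed (adjusted p = 0.00268 and 0.00923) and the list had 7 lower and 1 higher. That fit gave 16% lower and 14.4% higher among all genes. Without wt replicate 1, wt replicate 2 or nub1 replicate 2 the list had 3 lower members, and of these fits only that without nub1 replicate 2 kept the Gal call (adjusted p 0.0526 to 0.0971 in the others). The calls of UGP, Tps1 and Pgm1 held without any 1 array.

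Around glycolysis, the larger falls were in Pepck1 and Hex-C. Pepck1, the phosphoenolpyruvate carboxykinase of gluconeogenesis, had signals of 1520.4, 1513.3 and 1019.8 in wt and 526.6, 400.6 and 488.8 in nub1 (-1.48 on the log2 scale, SE 0.23, adjusted p = 0.000978 from limma). fbp, the fructose-1,6-bisphosphatase gene, fell with it (-0.60, SE 0.13, adjusted p = 0.00713). Hex-C, a hexokinase gene, was at 167.4, 168.1 and 107.0 in wt and at 63.3, 84.2 and 57.0 in nub1 (-1.0, SE 0.18, adjusted p = 0.00204). The fold was just under the 2-fold threshold. Of 10 glycolysis genes 1 was higher and 2 lower. Besides Hex-C these were the phosphoglucose isomerase gene Pgi (-0.27, SE 0.08, adjusted p = 0.039) and the phosphofructokinase gene Pfk (0.29, SE 0.09, adjusted p = 0.0356). The Pgi call ended whichever array was left out (adjusted p 0.0505 to 0.162), and the Pfk call ended without any array other than nub1 replicate 1 (0.0672 to 0.162), so that these fits gave 1 lower gene and at most 1 higher. The genes Eno (enolase, 0.02) and Tpi (triose phosphate isomerase, -0.12) had adjusted p values of 0.902 and 0.45. In the tricarboxylic acid cycle 1 gene of 12 fell and 2 rose, or 1 rose without nub1 replicate 2. Idh3b, a subunit gene of the NAD-dependent isocitrate dehydrogenase, was at 268.3, 307.9 and 279.9 in wt and 71.5, 82.5 and 83.3 in nub1 (-1.73, SE 0.09, adjusted p = 3.75e-07). muc, which encodes a subunit of the pyruvate dehydrogenase complex, rose (0.45, SE 0.10, adjusted p = 0.00733). The cytosolic malate dehydrogenase gene Mdh1 differed by -0.05 (adjusted p = 0.786).

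Gpdh1, the glycerol-3-phosphate dehydrogenase gene that links glycolysis to glycerolipids, had 4 tested probe sets, and they moved in opposite directions. The one that represents the gene differed by -0.25 on the log2 scale (SE 0.08, adjusted p = 0.0457 from limma), and this p was 0.0699 to 0.18 when any array other than nub1 replicate 2 was left out. A second fell from 1153.6, 1374.4 and 1067.5 in wt to 162.6, 186.4 and 198.0 in nub1, or -2.65 on the log2 scale. Another rose from 293.1, 282.1 and 210.5 to 811.7, 883.8 and 947.0, or 1.72 on the log2 scale. No array of one genotype overlapped the other for these 2 probe sets. The sources used here do not assign them to transcripts of the gene. Among 353 genes with several tested probe sets 22 had a changed one, and in 2 of these the probe sets changed both ways.

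In fat storage, Dgat2 and both perilipin genes of the lipid droplet coat fell, and 13 of 18 genes of fatty acid and triglyceride synthesis did not pass. Of 12 genes of fat droplets and lipases 2 were higher and 2 lower, with a median of -0.09 and log2 fold changes positive in 6 and negative in 6. Dgat2, a diacylglycerol acyltransferase gene of the last step of triglyceride synthesis, was at 45.8, 67.3 and 41.3 in wt and 7.59, 5.82 and 12.6 in nub1 (log2 fold change -1.71, SE 0.20, adjusted p = 0.000134 from limma). Lsd-1, the perilipin on the droplet surface at which AKH-stimulated lipolysis acts, was at 369.0, 369.5 and 363.9 in wt and 174.5, 175.0 and 185.6 in nub1 (-1.0, SE 0.14, adjusted p = 0.00042). For Lsd-1 the pools of each genotype lay close together and the genotypes far apart, and the fold was just under 2 without wt replicate 2, nub1 replicate 1 or nub1 replicate 2. Another diacylglycerol acyltransferase gene, mdy, was at 160.1 to 172.6 in wt and 126.4 to 139.0 in nub1 (-0.27, adjusted p = 0.0547, or 0.0155 with the carcass arrays alone). The other perilipin gene, Lsd-2, fell less (-0.38, SE 0.08, adjusted p = 0.00615). The lipase gene bmm, the fly counterpart of adipose triglyceride lipase, was at 315.2 to 318.6 in wt and 360.2 to 381.2 in nub1 (0.23, adjusted p = 0.324, or 0.00821 with the carcass arrays alone).

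In fatty acid synthesis the fatty acid synthase gene FASN1 fell from 1964.6, 1955.2 and 2048.4 to 1380.8, 1167.5 and 1423.5 (-0.59, SE 0.14, adjusted p = 0.0147 from limma, and 0.0544 without wt replicate 3 or 0.0677 without nub1 replicate 2). Desat1, a stearoyl-CoA desaturase gene, fell by 0.47 on the log2 scale (SE 0.10, adjusted p = 0.00671). Of 18 genes of fatty acid and triglyceride synthesis 5 were lower and none higher, and 15 of the 18 had negative log2 fold changes (median -0.13). Among all genes 7.93% were lower and 7.8% higher. Unadjusted, 9 of the 18 had a p under 0.05, and the carcass arrays alone gave 7 lower and 1 higher. In that fit 16% of all genes were lower and 14.4% higher. Without nub1 replicate 2 the list had 2 lower members and without any other array 3 or 4.

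Fatty acid oxidation had 5 lower and 2 higher of 16 genes (median -0.17), against 7.93% lower and 7.8% higher among all genes. CG4586, annotated as an acyl-CoA oxidase, fell from 207.3, 188.2 and 187.2 to 81.0, 95.1 and 71.3 (-1.15, SE 0.20, adjusted p = 0.00178 from limma), and yip2, a thiolase gene, by 0.70 (SE 0.10, adjusted p = 0.00042). Without wt replicate 3 or nub1 replicate 3 the list had 2 lower members, and without some arrays none higher. Among lipid carriers, the lipoprotein precursor gene apolpp was at 1790.6 to 2186.3 in wt and 2420.0 to 2863.3 in nub1 (0.38, adjusted p = 0.523, or 0.0113 with the carcass arrays alone). GLaz, a lipocalin gene of the Apolipoprotein D family, rose from 52.7, 47.8 and 41.1 to 143.9, 153.7 and 132.2 (1.42, SE 0.10, adjusted p = 1.68e-06). LpR2, a lipophorin receptor gene, was at 173.7, 260.9 and 173.8 in wt and 122.2, 98.2 and 75 in nub1 (-0.97, SE 0.24, adjusted p = 0.0152, and 0.0726 without wt replicate 2 or without nub1 replicate 3). CG6283, a lipase gene that was far brighter in gut (mean signal 3587.2 in nub1 gut and 38.9 in nub1 carcass), rose in carcass by 1.61 (SE 0.27, adjusted p = 0.0016).

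**Figure D3:**
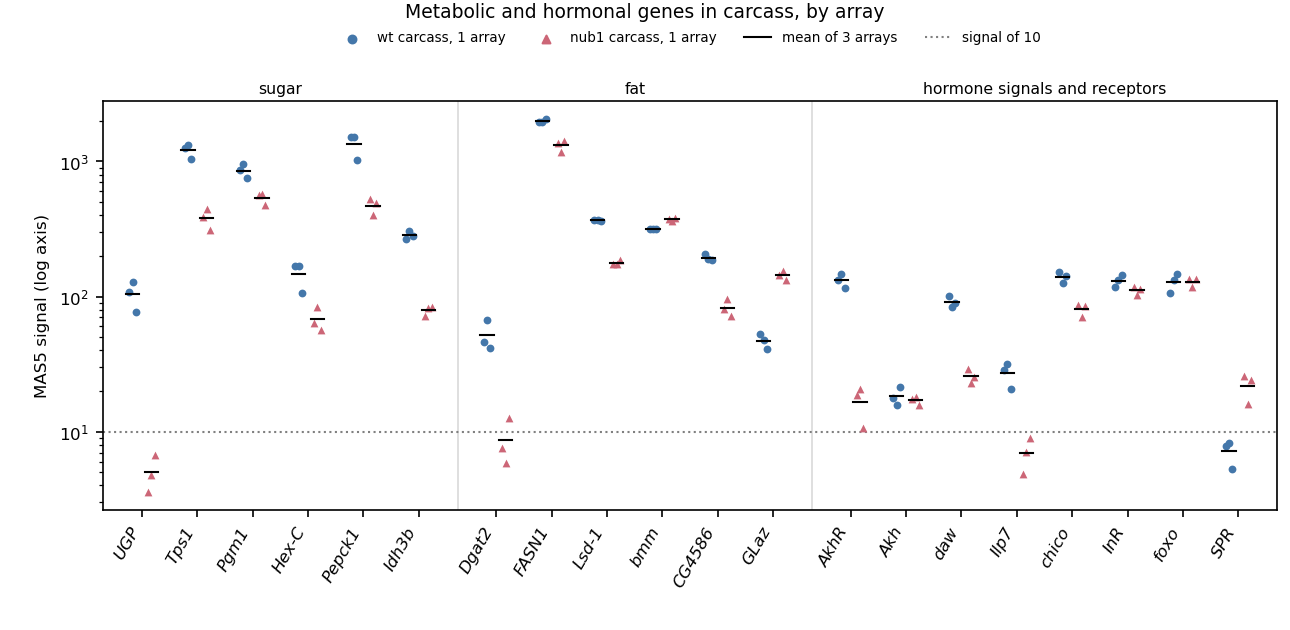
MAS5 signal (y axis, log scale) of genes of sugar, fat and hormone metabolism on each carcass array, wt as circles and nub1 as triangles, with a bar at the mean of 3 arrays and a dotted line at a signal of 10. UGP lies under 10 on all nub1 arrays, the genotypes are apart for AkhR, Tps1 and Lsd-1, and they overlap for Akh, InR and foxo.

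Of 15 cuticular hydrocarbon genes tested 5 were lower, 1 was higher and 9 did not pass (7.93% lower and 7.8% higher among all genes). Desat2, a desaturase gene of this pathway whose activity is known to differ between natural fly strains, was at 14.7, 7.27 and 9.21 in wt and at 680.2, 691.3 and 750.8 in nub1 (log2 fold change 5.15). Fad2, the female desaturase gene that gives diene pheromones, went the other way, from 1787.0, 1936.2 and 1692.9 to 832.7, 882.0 and 888.8 (-1.05, SE 0.25, adjusted p = 0.0146 from limma). The Fad2 call rested on its wt replicate 2 and nub1 replicate 1, without which the adjusted p was 0.0573 and 0.0508. With the carcass arrays alone the SE of Fad2 was 0.06 (adjusted p = 5.46e-06). The fatty acid elongase gene Elovl7 (-0.95, SE 0.10, adjusted p = 4.32e-05) and the oenocyte fatty acid synthase gene FASN2 (-0.80, SE 0.20, adjusted p = 0.0184) also fell. FASN2 did not pass without wt replicate 1, wt replicate 2, nub1 replicate 1 or nub1 replicate 2 (adjusted p 0.0535 to 0.0685). Cyp4g1, the oxidative decarbonylase of oenocytes, had signals of 5380.0 to 5891.6 in wt and 4810.4 to 5215.5 in nub1 (-0.21, adjusted p = 0.523). Without wt replicate 2 or nub1 replicate 1 there were 2 lower genes in the list. The 8 oenocyte markers share FASN2, Fad2 and Desat1 with these lists, and these 3 were lower and none higher. The lower oenocyte marker level includes these 3 falls themselves, and its part in the other falls was not tested.

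The AKH receptor gene AkhR had the largest fall among the 5 peptide hormone receptors tested. Its signal was 132.7, 146.7 and 115.6 in wt and 18.7, 20.6 and 10.7 in nub1 (log2 fold change -2.42, SE 0.21, adjusted p = 1.35e-05 from limma), a ratio of the mean signals of 7.91. A second, dimmer AkhR probe set had a log2 fold change of -0.89 and did not reach 2-fold. Akh itself, made in the corpora cardiaca, was dim in both genotypes, 15.7 to 21.4 in wt and 15.8 to 17.9 in nub1 (-0.06, adjusted p = 0.943). CrzR, the corazonin receptor gene, fell from 84.9, 79.8 and 63.4 to 20.8, 29.2 and 38.4 (-1.14, SE 0.26, adjusted p = 0.0103, and 0.0503 without nub1 replicate 1). Its probe set is named only in the supplementary table of the paper, so that it stands outside the list.

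Other receptors moved at low signals. SPR, the sex peptide receptor gene, was at 7.86, 8.26 and 5.29 in wt and 25.8, 16.0 and 24.0 in nub1, at least 2.19-fold higher (adjusted p = 0.00472 from limma). Dh44-R2, a diuretic hormone receptor gene, was at 8.23, 2.35 and 9.19 in wt and 20.2, 23.5 and 23.1 in nub1 (fitted log2 fold change 0.99, adjusted p = 0.00611). Pdfr, the receptor gene for pigment-dispersing factor, was at 23.7, 19.4 and 10.5 in wt and 8.39, 2.69 and 5.45 in nub1. Its adjusted p of 0.0231 lay between 0.066 and 0.101 when wt replicate 1 or 2 or nub1 replicate 2 or 3 was left out. Of 33 receptor genes listed only 5 could be tested, with 2 higher and 2 lower. SPR and Dh44-R2 were under 10 on all wt arrays and entered the test only through nub1, where they were high. Pdfr entered it only through wt. The filter thus favoured the direction of these calls. None of 12 peptide hormone genes passed, although 4 had an unadjusted p under 0.05 and 6 were lower in the carcass arrays alone. In that fit 16% of all genes were lower. The neuropeptide precursor gene Nplp2 was at 5044.5 to 5444.5 in wt and 4353.7 to 4488.3 in nub1 (-0.25, adjusted p = 0.388, or 0.0112 with the carcass arrays alone), and Nplp3 had a log2 fold change of -0.93 (adjusted p = 0.218, or 0.00779).

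In insulin and nutrient signalling 5 of 21 genes were lower and 1 higher (median -0.16), against 7.93% lower and 7.8% higher among all genes. daw, an activin-type ligand that in Drosophila larvae acts on sugar and fat use, fell from 100.4, 83.8 and 89 to 29.1, 23 and 25.4 (-1.5, SE 0.13, adjusted p = 1.32e-05 from limma). The insulin-like peptide gene Ilp7 was at 28.6, 31.8 and 20.5 in wt and under 10 on all nub1 arrays, at least 2.7-fold lower (adjusted p = 0.00265, and 0.0742 with a pseudocount of 1). chico, the insulin receptor substrate gene, was at 152.9, 127.0 and 141.8 in wt and 86.1, 70.2 and 85.4 in nub1 (-0.73, SE 0.12, adjusted p = 0.00131). The stress-induced TORC1 regulator gene Sesn also fell (-0.82, SE 0.16, adjusted p = 0.00328). The insulin receptor gene InR (-0.21, adjusted p = 0.398), the transcription factor gene foxo (0.01, adjusted p = 0.977) and ImpL2, which encodes an insulin-binding protein (0.17, adjusted p = 0.358), did not pass. The list had 4 or 5 lower members whichever array was left out, and of these fits only that without nub1 replicate 2 kept its 1 higher member. The carcass arrays alone gave 9 lower and 1 higher, against 16% lower and 14.4% higher among all genes in that fit.

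Among genes of the lipid hormones, 2 were higher and 1 lower of 10 for juvenile hormone, and 1 was higher of 7 for ecdysone synthesis and breakdown. Of all genes 7.8% were higher and 7.93% lower. Of 12 ecdysone response genes 1 passed, MsrA, a methionine sulfoxide reductase gene induced by ecdysone (-0.62, SE 0.10, adjusted p = 0.00147 from limma). ftz-f1, a nuclear receptor gene of that response, was at 384.8 to 399.7 in wt and 350.7 to 397.7 in nub1 (-0.05, adjusted p = 0.83). E23, an ABC transporter gene induced by ecdysone, was at 245.5, 263.1 and 305.3 in wt and 545.8, 454.1 and 489.6 in nub1 (0.85, adjusted p = 0.0271). The genotypes were clearly apart for E23, but its adjusted p was 0.0536 to 0.0987 without wt replicate 1 or 2 or any nub1 replicate. Cyp18a1, which inactivates ecdysone, had a log2 fold change of -0.11 (adjusted p = 0.901). Among 10 juvenile hormone genes Fpps, the farnesyl diphosphate synthase gene (0.72, SE 0.09, adjusted p = 0.00021), and JhI-26, a hormone-inducible gene (0.49, adjusted p = 0.00927), rose. Hmgs, for an earlier enzyme of the same mevalonate pathway as Fpps, fell (-0.52, SE 0.09, adjusted p = 0.00226). Tdc1, a tyrosine decarboxylase gene of tyramine synthesis, rose from 16.8, 13.0 and 13.5 to 35.3, 28.3 and 36.6 (0.83, SE 0.15, adjusted p = 0.00202).

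Among genes for secreted proteins of the fat body, those of storage proteins and a few others rose. Of 22 adult fat body genes 17 did not pass, and neither did the yolk protein genes. Lsp2, a larval serum protein (hexamerin) gene, was at 187.8, 176.7 and 23.3 in wt and 727.8, 413.7 and 1009.0 in nub1 (log2 fold change 2.67, SE 0.61, adjusted p = 0.0102 from limma). Lsp1alpha was at 0.962, 2.83 and 1.38 in wt and 100.7, 40.0 and 429.8 in nub1, at least 19-fold higher (adjusted p = 0.00106). Lsp1beta was at 13.3, 33.6 and 9.07 in wt and 197.8, 124.6 and 667.9 in nub1 (3.31, SE 0.49, adjusted p = 0.000595). For all 3 the order of the nub1 pools was the same, replicate 3 highest and replicate 2 lowest, and the lowest nub1 pool stood above the highest wt pool. None of the 3 passed by the methods' t-test on the linear signals (adjusted p = 0.104 for Lsp2, 0.343 for Lsp1alpha and 0.279 for Lsp1beta). The probe sets of Lsp1alpha and Lsp1beta are named only in the supplementary table of the paper, and these hexamerins are known mainly as proteins of the larval fat body.

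fit, a female fat body gene for a secreted satiety peptide, rose from 725.5, 958.7 and 661.6 to 2817.4, 2947.2 and 3137.7 (1.93, SE 0.23, adjusted p = 0.000119 from limma). Tsf1, the transferrin gene for haemolymph iron transport, was at 546.5, 1097.1 and 537.1 in wt and 2718.6, 1845.9 and 1847.9 in nub1 (1.60, SE 0.27, adjusted p = 0.00159), and its second probe set rose as much (1.57). Obp99b, for an odorant-binding protein of the fat body, rose from 6.88, 11.9 and 9.85 to 62.7, 39.1 and 115.9 (1.98, SE 0.41, adjusted p = 0.00547). By the methods' t-test neither Tsf1 nor Obp99b passed (adjusted p = 0.0666 and 0.141). sxe2, a sex-regulated gene, rose from 9.96 to 12.2 in wt to 25.2 to 28.3 in nub1 (0.78, SE 0.18, adjusted p = 0.011). The yolk protein genes Yp1, Yp2 and Yp3, which the female fat body and the follicle cells express, had log2 fold changes of -0.16, -0.13 and -0.14 (adjusted p = 0.591, 0.635 and 0.848). Their signals overlapped between the genotypes, as for Yp1 with 5532.5 to 6401.1 in wt and 4862.3 to 5614.8 in nub1. Of 22 adult fat body genes 4 were higher and 1 lower (among all genes 7.8% and 7.93%), and the 4 held without any 1 array. Obp99b and sxe2 did not reach 10 on all 3 wt arrays. They were tested only through nub1, where they were high, which favours higher calls. The list had a median of -0.17, with 15 log2 fold changes negative and 7 positive. With the carcass arrays alone 5 were higher and 6 lower, against 14.4% and 16% of all genes in that fit. The 12 fat body markers include Lsp2, fit, Tsf1, AkhR and Lsd-1, of which the first 3 rose and the others fell. The higher summed fat body marker signal includes the rises of Lsp2, fit and Tsf1 themselves, so these are not separate observations. Its part in the other rises was not tested.

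Few ovary transcripts passed in the fit of all 4 groups. None of 17 chorion genes passed (median log2 fold change -0.02). Cp15 was at 4951.1 to 5676.6 in wt and 4110.1 to 5066.7 in nub1 (-0.24), and Cp19 at 4358.1 to 4751.7 and 4440.0 to 4686.6 (-0.02). Their SEs were 1.57 and 1.60 in the fit of all 4 groups, in which the ovary marker level of single gut arrays ranged from 4.72 to 9.69. With the carcass arrays alone the SEs were 0.09 and 0.06, the adjusted p values were 0.072 and 0.841, and 1 chorion gene was higher. Vm34Ca and Vm26Aa, of the vitelline membrane, differed by -0.09 and -0.08 (adjusted p = 0.983 for both, or 0.538 and 0.539). The germline genes osk (-0.13) and me31B (-0.15) and the egg cyclin gene CycB (-0.04) and maternal tubulin gene alphaTub67C (0.15) had adjusted p values of 0.78 to 0.953. Of 36 germline and piRNA genes 1 was higher and 1 lower, and of 24 cell cycle and egg activation genes 2 were lower. Leaving out any 1 array gave 0 or 1 higher and 1 lower in the germline list and none lower in the cell cycle list. With the carcass arrays alone 7 germline genes were higher and 3 lower, and 8 cell cycle genes were lower (33.3%, against 16% of all genes) and 1 higher. Of all genes 14.4% were higher in that fit.

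The larger changes were in bam, cathD and cuff. bam, the switch gene for germline cyst differentiation, fell from 312.2, 346.0 and 334.2 to 117.3, 116.0 and 101.6 (log2 fold change -1.49, SE 0.27, adjusted p = 0.00265 from limma). cuff, a piRNA cluster gene of the germline, was at 24.3, 33.1 and 36.8 in wt and 77.0, 70.6 and 68.3 in nub1 (1.00, SE 0.24, adjusted p = 0.0144, and 0.0663 without wt replicate 1 or 0.0552 without nub1 replicate 1). cathD, the lysosomal protease cathepsin D gene listed among follicle cell genes, fell from 1266.9, 1320.0 and 1301.1 to 433.6, 420.0 and 439.5 (-1.57, SE 0.11, adjusted p = 1.87e-06). Within each genotype the pools of bam and cathD were close together. cathD also fell in gut (-1.41), where the mean signal was 2169.2 in wt.

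**Figure D4:**
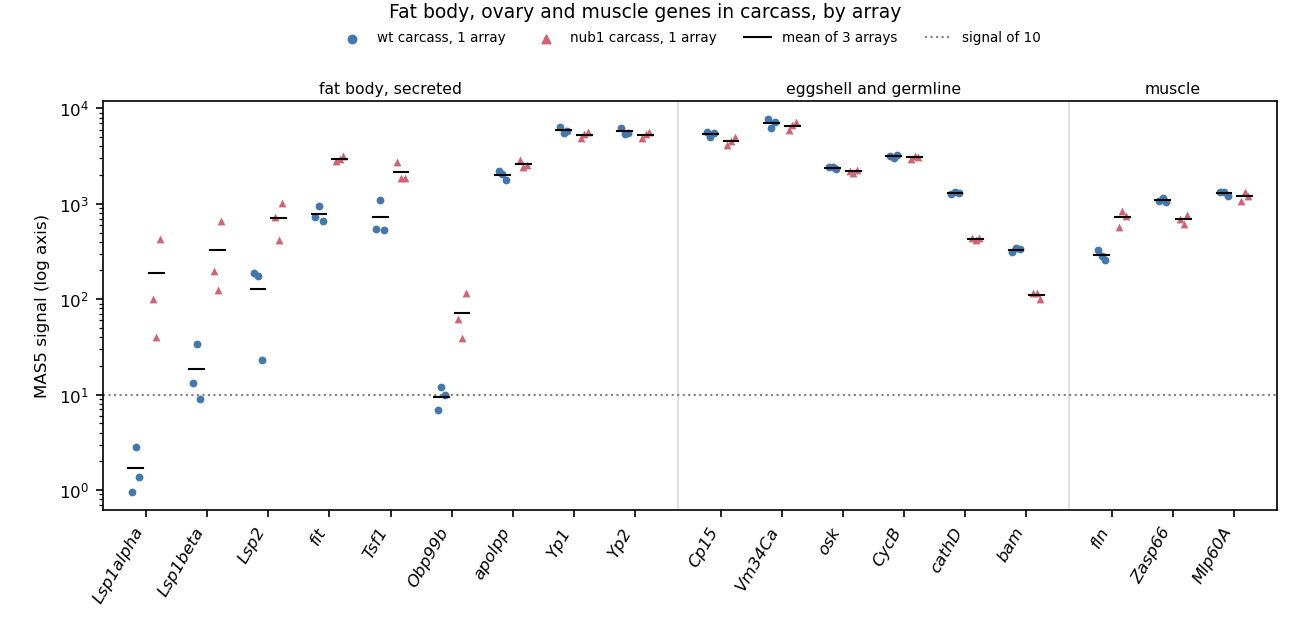
MAS5 signal (y axis, log scale) of genes of fat body secretion, ovary and muscle on each carcass array, wt as circles and nub1 as triangles, with a bar at the mean of 3 arrays and a dotted line at a signal of 10. The hexamerin genes, fit, Tsf1 and Obp99b are higher and cathD and bam lower on every nub1 array, while the yolk, eggshell and CycB signals lie at about the same level in both genotypes.

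Of 28 sarcomere genes 1, fln, was higher, and Zasp66 and Zasp52 were lower. fln, which encodes flightin, a thick-filament protein of the indirect flight muscle, rose from 329.9, 282.3 and 257.3 to 573.1, 837.9 and 750.7 (log2 fold change 1.27, SE 0.15, adjusted p = 0.000141 from limma). The median of the list was 0.09. Zasp66, a Z-disc protein gene, was at 1041.6 to 1150.8 in wt and 615.1 to 764.2 in nub1 (-0.66, SE 0.18, adjusted p = 0.026). Its adjusted p was 0.0596 to 0.101 without wt replicate 1, 2 or 3 or nub1 replicate 1 or 2. Zasp52, for another Z-disc protein, was at 446.9 to 520.3 in wt and 327.0 to 400.7 in nub1 (-0.47, SE 0.12, adjusted p = 0.0174), and at 0.0702 to 0.0744 without wt replicate 1 or 2 or nub1 replicate 1 or 2. Mlp60A, a muscle LIM protein gene, had a log2 fold change of -0.11 (adjusted p = 0.762). With the carcass arrays alone 7 sarcomere genes were higher and 3 lower, against 14.4% and 16% of all genes in that fit. The 8 muscle markers, fln among them, averaged higher on each nub1 array than on any wt array, and 7 of the 8 had positive log2 fold changes. Their level includes the rise of fln itself, and the part of the other markers in that rise was not tested.

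Detoxification genes moved in both directions. Of 56 cytochrome P450 genes 10 were higher and 13 lower, 4 and 7 of them by at least 2-fold. Among all genes 7.8% were higher and 7.93% lower, and 2.51% and 1.97% by at least 2-fold. Without wt replicate 3 there were 6 higher. Besides Cyp4p1 (at least 21.8-fold lower), the falls included Cyp6w1, at 457.4, 676.3 and 435.9 in wt and 154.7, 115.4 and 71.1 in nub1 (log2 fold change -2.14, SE 0.25, adjusted p = 0.000114 from limma). Cyp12c1 fell from 111.4, 106.5 and 105.4 to 29.4, 17.3 and 20.9 (-1.87, SE 0.16, adjusted p = 1.15e-05), and Cyp313a1 (-1.73) and Cyp9c1 (-1.53) fell as well. Cyp6a18 had the largest rise among these 56 genes, at least 2.82-fold. The paper reports a larger carcass rise for Cyp12d1-d, which is not among those counted here. In the glutathione transferase family 7 were higher and 5 lower of 28. GstD2, an inducible delta-class enzyme, rose from 14.2, 4.7 and 14.6 to 84.8, 62.0 and 101.1 (2.15, SE 0.23, adjusted p = 6.27e-05), and GstE5 by 1.69, while GstZ1 (-1.19) and GstO1 (-1.08) fell. Ugt35C1, a UDP-glycosyltransferase gene, rose from 16.5, 21.2 and 10.2 to 146.6, 137.9 and 121.7 (2.50, SE 0.15, adjusted p = 6.49e-07) and Ugt37D1 fell (-1.16). cnc, the fly counterpart of the oxidative stress regulator Nrf2, was at 605.4, 579.6 and 422.8 in wt and 178.3, 148.9 and 189.1 in nub1 (-1.57, SE 0.24, adjusted p = 0.000679), with Gtpx, a glutathione peroxidase gene, lower by 0.48 on the log2 scale (adjusted p = 0.0018).

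Several rises were in genes that are far brighter in gut, and on these carcass arrays the gut marker level was also higher in nub1 (6.04 to 6.77, against 5.71 to 5.80). Of the 245 probe sets called higher in nub1 carcass 53 had a mean signal in nub1 gut of 10 times that in nub1 carcass or more, and of the 172 called lower 7 had such a ratio of wt gut to wt carcass. Among all 259 tested probe sets of this kind 20.5% were called higher, against 2.77% of all probe sets. Those under 10 in wt carcass, such as Mal-A2 and Mal-A8, entered the test only through nub1, where they were high. The filter thus favours higher calls in this share. Without the probe sets brighter in gut, 192 were higher and 165 lower. Digestive maltase genes were among them. Mal-A6 was at 9.56, 4.57 and 6.33 in wt and 164.8, 59.5 and 113.0 in nub1 carcass, at least 11.2-fold higher, and its rise equalled 2.57% of the mean nub1 gut signal. Mal-A1, Mal-A7, Mal-A8 and Mal-A2 rose too, with rises of 0.948% to 3.46% of the gut signal. For Npc2e, a gut sterol-binding protein gene, at 8.66, 3.52 and 17 in wt and 319.6, 32.1 and 129.0 in nub1, it was 2.02%. The Mal-A genes are themselves among the gut markers, so their rises and the gut marker level are not separate observations. Mal-B1, a maltase gene whose mean signal in gut was 23.7 in wt and 18.2 in nub1, fell in carcass from 48.0, 44.8 and 32.3 to 13.9, 5.74 and 0.979 (log2 fold change -1.67, SE 0.24, adjusted p = 0.000459 from limma). GLaz, Idh3b, AkhR, Lsp2 and fit were not among the probe sets brighter in gut by this measure. The shares and the gut marker levels above moved together with genotype, and the part of gut RNA in these rises was not tested.

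The zinc transport genes ZnT35C and Zip102B fell. ZnT35C, a zinc exporter gene expressed in Malpighian tubules, fell from 199.5, 196.3 and 219.9 to 37.7, 36.1 and 49.3 (log2 fold change -2.08, SE 0.14, adjusted p = 1.23e-06 from limma). Zip102B, a ZIP-family zinc transporter gene, fell from 119.6, 117.8 and 120.0 to 11.8, 6.53 and 8.97 (-2.77, SE 0.19, adjusted p = 2.03e-06). In both, the wt pools lay within a narrow range far above all mutant pools. Of 21 genes of metal handling 2 were higher, Tsf1 among them, and 2 lower. Uro, the urate oxidase gene of the Malpighian tubule, whose probe set is named only in the supplementary table of the paper, rose from 69.1, 31.2 and 27.1 to 291.7, 361.0 and 382.2 (2.83, SE 0.23, adjusted p = 7.31e-06). Its signal was brighter in gut, with a mean of 2395.6 in nub1. Of 7 tubule markers tested, ZnT35C among them, 3 were higher and 2 lower. Their lower summed signal includes the fall of ZnT35C itself, and its part in the other changes was not tested.

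Odorant-binding proteins, small secreted carriers found in sense organs and in other tissues, had 7 higher and 2 lower of 18. Among all genes 7.8% were higher and 7.93% lower. Obp56d rose from 162.4, 191.3 and 167.1 to 682.8, 610.3 and 669.3 (log2 fold change 1.86, SE 0.10, adjusted p = 3.75e-07 from limma) and Obp57b from 29.9, 25.4 and 18.4 to 127.1, 121.6 and 134.1 (2.0, SE 0.17, adjusted p = 1.17e-05). Obp19d rose by 1.32. The genotypes were far apart for all 3 relative to the spread of the pools. Obp57a fell (-1.05, SE 0.14, adjusted p = 0.000367), and Obp44a had -1.23 (SE 0.36, adjusted p = 0.0396), which was 0.0833 to 0.112 without any 1 array. Of 17 cuticle protein genes 4 were higher and 1 lower, led by Lcp65Aa (1.45, SE 0.28, adjusted p = 0.00403) and Cpr62Bb (1.32, SE 0.16, adjusted p = 0.000134), both at low signals. The list had 2 or 3 higher genes when any 1 array was left out. CG3168, annotated as a membrane transporter, rose from 308.4 to 340.6 in wt to 680.1 to 744.0 in nub1 (1.09, SE 0.12, adjusted p = 5.84e-05).

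In genes of basic cell machinery no change reached 2-fold. Of 56 nuclear respiratory chain genes 6 were higher and 2 lower, with a median log2 fold change of 0.13, 48 of them positive. The higher genes numbered 2 without nub1 replicate 2 and 9 without nub1 replicate 1, and 15 with the carcass arrays alone (26.8%, against 14.4% of all genes). Of 31 cytoplasmic ribosomal protein genes 1 was higher and none lower, with a median of -0.13 and 28 negative, and without wt replicate 1, nub1 replicate 1 or nub1 replicate 3 none passed. RpL41, for example, was at 6658.9 to 7181.6 in wt and 5693.5 to 6267.3 in nub1 (-0.19, adjusted p = 0.287 from limma), and RpS18 had -0.07 (adjusted p = 0.718). Of 69 mitochondrial ribosomal protein genes 4 were higher and 3 lower, and of 26 proteasome genes 1 was higher. Leaving out any 1 array gave 1 or 2 higher mitochondrial ribosomal protein genes and no proteasome gene, and the carcass arrays alone gave 14 and 4. Of 10 heat shock and chaperone genes none passed, with 2 at an unadjusted p under 0.05 and 1 higher in the carcass arrays alone.

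**Figure D5:**
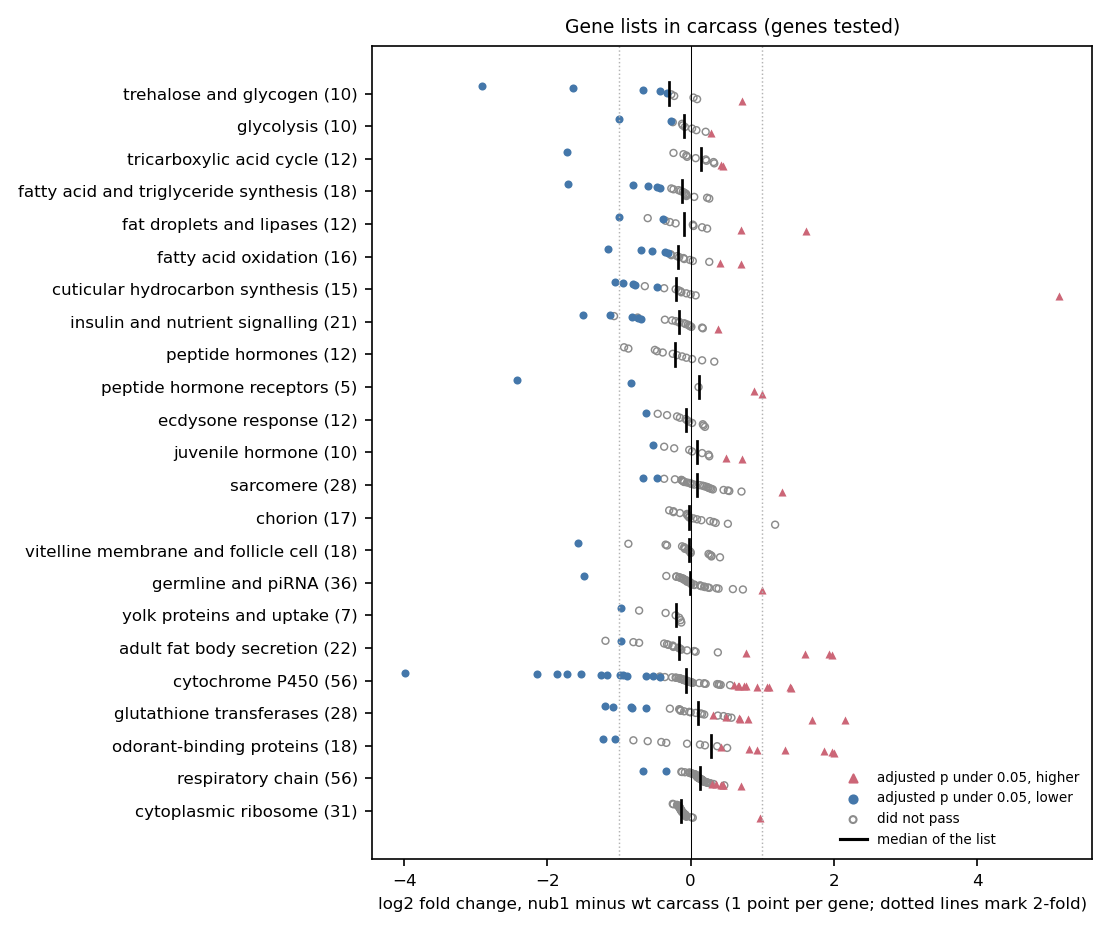
Log2 fold change, nub1 minus wt carcass (x axis), of each tested gene of 23 lists, with the number tested in brackets, a bar at the list's median and dotted lines at 2-fold. Filled points passed the test (triangles higher, circles lower), and the trehalose, fatty acid and hydrocarbon lists have most of their filled points on the left while the chorion, vitelline membrane and germline lists have medians near 0.

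Signals of b and pr, of which the mutant strain carries mutant alleles, were lower in nub1 carcass. The probe set of b is named only in the supplementary table of the paper. b, the aspartate decarboxylase gene that makes beta-alanine for cuticle tanning, was at 160.0, 168.2 and 122.7 in wt and 19.8, 23.4 and 25.7 in nub1. pr, of pterin eye pigment synthesis, was at 323.8, 344.9 and 335.0 and at 138.8, 126.7 and 134.2. pyd3, whose product makes beta-alanine by another route, rose from 99.5, 106.3 and 86.4 to 197.2, 264.6 and 211.2 (log2 fold change 1.12, SE 0.11, adjusted p = 4.21e-05 from limma). The brightest nub probe set was between 3.42 and 8.42 on the 6 arrays and could not be tested. All 3 loci lie on chromosome arm 2L. Among the 50 tested genes that follow b in the RefSeq order 14% were changed, and among the 50 before it 2%, against 4.49% of all genes. For nub and pr the 100 nearest tested genes had 3% and 5% changed. By chromosome arm the share was 3.62% on X, 4.99% on 2L, 5.15% on 2R, 4.07% on 3L, 4.4% on 3R and 6.82% on the small chromosome 4, with 44 genes tested.

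Some carcass changes differed from those of the same gene in gut, where nub1 guts were compared with wt guts in the same fit. Of 10199 probe sets 6.56% had a difference of 2-fold or more, at an adjusted p under 0.05 from limma. The differences below are gut minus carcass, in log2. ZnT35C fell in carcass and was at a mean of 112.5 in wt and 103.2 in nub1 gut (difference 1.97, adjusted p = 8.62e-05). Tps1 had -1.65 in carcass and -0.61 in gut (difference 1.04, adjusted p = 0.00685). Lsd-1 had -1.0 in carcass and -2.93 in gut (difference -1.93, adjusted p = 0.000111), so its fall was larger in gut. GLaz had 1.42 in carcass and 0.23 in gut (difference -1.19, adjusted p = 0.000255). For AkhR (-2.42 and -1.88), UGP (-2.91 and -2.80), Dgat2 (-1.71 and -2.0), Idh3b (-1.73 and -1.84), fit (1.93 and 1.73) and chico (-0.73 and -0.64) the difference between the tissues did not pass (adjusted p = 0.265 to 0.824).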

How the data were processed

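RNA of gut and carcass pools was hybridized by the authors to 12 arrays in 4 groups of 3. The deposited intensity values are linear MAS5 signals, made by the authors in Affymetrix Expression Console with a target of 100 (trimmed mean 100.0 on every array). The version of that program is not given in the sources used here. No detection call was used. Precision is limited by having 3 arrays a group.

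Of 18952 probe sets 183 were controls. Of the other 18769, 13646 named 1 gene through the platform table, 13543 of them updated through RefSeq, 402 named several and 4721 none. Another 44 are named only in the supplementary table of the paper and stand outside the lists and counts of genes. A gene is represented by its probe set with the highest mean signal. Values were taken as log2(signal + 10) and fitted in limma 3.58.1 (R 4.3.3), 4 groups in 1 model with a variance trend (8 residual and 3.59 prior degrees of freedom), adjusted by Benjamini-Hochberg over all 8855 probe sets with a signal of at least 10 on all 3 arrays of a carcass group. A fold of at least a value is a bound against 10. The fit was tested on simulated data. Tables were handled in Python 3.11.15 with numpy 2.4.6 and pandas 2.3.3, and plots drawn with matplotlib 3.10.9.

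Members, lists, markers and alternatives were chosen with earlier results of these data known. Genes were named by a rule: the strain's alleles, the 15 largest rises and falls, up to 6 changed members of a list or else its 2 brightest, and AKH and insulin genes. Not all are described, and some members under 2-fold or not passing were named after their values were seen. Lists have no set test. Alternatives were other pseudocounts, filters and normalizations, a replicate block, the carcass arrays alone, each carcass array left out and, chosen after the data were seen, leaving out probe sets brighter in gut. Left out of the text are genes whose names rest on several matches. No sequence was printed, since none was at hand.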

Additional observations from a re-analysis of the deposited data

Results flagged for a closer look

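The genes below are those of the text for which the effect of nub1 differed between gut and carcass by at least 2-fold, at an adjusted p under 0.05 from limma for the difference itself. Values are log2 differences, gut minus carcass. Single gut arrays differed in ovary marker level (4.72, 8.4 and 9.69 in wt and 4.78, 9.26 and 6.18 in nub1) and in ejaculatory duct marker level (5.58 to 5.92 in wt and 5.97 to 8.99 in nub1), and the part of this in the differences was not tested.

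Of the metabolic genes, Tps1 (1.04) fell more in carcass and Lsd-1 (-1.93) more in gut. FASN2 (1.38) and Fad2 (1.18) fell in carcass, while their gut values on the log2 scale were 0.57 and 0.14. Desat2 (-1.5) rose more in carcass, as did GLaz (-1.19), for which the gut value was 0.23. Among hormonal genes the difference was 1.16 for Ilp7, 1.69 for SPR, 1.31 for CrzR, 1.1 for ImpL2, -1.1 for Nplp2, -1.52 for JhI-26 and -1.15 for Tdc1. Ilp7 had mean gut signals under 10 in both genotypes (2.99 in wt and 3.35 in nub1), so its difference rests on the carcass fall. The hexamerin genes Lsp1alpha (-3.43) and Lsp1beta (-2.81) and the muscle gene fln (-1.27) rose in carcass, and in gut Lsp1alpha and fln had mean signals under 10 in both genotypes.

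For detoxification genes it was 2.25 for Cyp12c1, 2.09 for Cyp313a1, 1.29 for GstD2, 1.61 for Ugt35C1 and -1.94 for Ugt37D1. Cyp313a1 had mean gut signals under 10 in both genotypes (2.26 in wt and 5.82 in nub1), so its difference rests on the carcass fall. For maltase genes it was 1.42 for Mal-B1, 2.94 for Mal-A7 and 1.35 for Mal-A8. It was 1.1 for Gal, 1.97 for ZnT35C and 1.84 for b, and for secreted and cuticle proteins -2.18 for Obp56d, -1.05 for Obp19d and -1.44 for Cpr62Bb.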

How the results depend on the processing

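No result of the text that passed turned its direction under any alternative, and 18 of the 121 genes tested lost a call without some carcass array, for Lsd-1, Obp57a and pyd3 only by the 2-fold limit. Fitted to the 6 carcass arrays alone, 2636 probe sets passed in place of 1384, 1265 higher and 1371 lower, with 1382 of the 1384 among them. The gut arrays' spread is left out there. With a pseudocount of 32, 230 were changed at least 2-fold (139 higher and 91 lower) in place of 417, and the effect differed between gut and carcass for 403 in place of 669. Of the genes of the text 18 then lost a call, by the test or the 2-fold limit. Leaving out 1 carcass array in turn gave 1003 to 1090 passing and 406 to 448 changed, the methods' t-test 1615 and 472. By that t-test, on linear signals, 21 genes of the text lost a call, the most under any alternative, among them the 3 hexamerin genes, Tsf1, Obp99b, Mal-A1, Mal-A6, Mal-A7, Mal-A8, Npc2e, CG6283, SPR, Hex-C, fbp and Desat1, and 5 gained one. Replicate numbers do not pair the wt with the nub1 carcass pools, since deviations of same-numbered pools from their genotype means correlated at -0.104 to 0.004. Pairing of gut with carcass pools within a genotype was not checked, and the fit takes these arrays as independent. With the replicate number as a block 1278 passed and 414 were changed, and of the genes of the text the calls of Gpdh1, Pgi and Pfk ended (adjusted p = 0.0912, 0.0743 and 0.0694). Signals near 10 are close to background and limit what can be said of dim genes.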
